A study of Mus musculus with 474 samples.

Results

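Slc15a5 (ENSMUSG00000044378) encodes a member of the solute carrier 15 family and is 1 of 20612 genes in the deposited tables of skeletal muscle RNA from Diversity Outbred mice. It was found by its gene symbol, it passed the filter on low counts, and it is 1 of 18823 genes tested. The gene was selected for its large difference between the sexes, so its levels in males and females, its lowest libraries and the genes most like it are given as a description, without p-values. Diversity Outbred mice are a stock derived from several inbred founder strains and kept by random mating, so no animal has the same combination of founder alleles as another. Each library came from gastrocnemius muscle of 1 adult mouse labelled female or male, and every animal had the same high-fat, high-sugar diet. The labels divide them further by a number read here as the generation of the stock. In the order 17, 18, 19, 21 and 23 of these numbers, the female libraries numbered 48, 45, 49, 46 and 47 and the male libraries 46, 48, 50, 47 and 48. No mouse of an inbred strain and no other diet was included, and the founder haplotype that each animal carried at Slc15a5 was not analysed here.

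The solute carrier 15 family moves short peptides and related molecules across membranes together with protons. Slc15a1 and Slc15a2 are the classical peptide transporters of intestine and kidney, whereas Slc15a3 and Slc15a4 act on endolysosomal membranes and are best known from immune cells. Slc15a5 belongs to the family by sequence and has no established substrate, for which reason it is called an orphan transporter.

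Slc15a5 lies on the minus strand of mouse chromosome 6 at chr6:137983586-138079916 (GRCm38). It is protein-coding, with 6 transcripts in GENCODE M21, 9 exons in its longest model, 3088 bases of merged exon and a longest coding sequence of 1698 bases. No other annotated gene overlaps it, so reads of an antisense or overlapping gene were not mixed into its counts by position. The 250 bases upstream of its start in RefSeq (GRCm38.p6, chr6:138079917-138080166, minus strand) are shown because the difference between the sexes drew attention to this gene, and the capitals mark its CG dinucleotide.
Slc15a5 upstream: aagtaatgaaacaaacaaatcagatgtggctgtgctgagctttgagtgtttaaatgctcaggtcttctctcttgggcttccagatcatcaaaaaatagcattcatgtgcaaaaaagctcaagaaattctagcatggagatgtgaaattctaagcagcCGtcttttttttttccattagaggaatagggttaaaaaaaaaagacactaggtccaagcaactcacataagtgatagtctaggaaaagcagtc
This window had a GC content of 37.2%, against a median of 52.4% over 32536 promoter windows of the same length, of which 7.23% were lower. It holds 1 CG dinucleotide, and 7.80% of windows hold none. The E-box CAGCTG, searched on both strands, occurred in 13.1% of windows and TATAAA in 12.3%, and neither matched here. The absence of a match says only that these letters do not stand in this window.

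In males, Slc15a5 was a moderately abundant muscle transcript, and in females it was scarce. Levels are given as CPM, the count of a gene scaled to a common library total with TMM factors. In males they ran from 0 through a median of 14.6 to 61.7, with a mean of 16.9 ± 11.1 (SD over all males). In females they ran from 0 through a median of 0.516 to 5.19, with a mean of 0.875 ± 0.991 (SD over all females). The median was 28.3 times higher in males and the mean 19.3 times, and the fitted difference (edgeR, generation as covariate) was 4.32 ± 0.14 (SE) on the log2 scale, male minus female. The sexes still overlapped: 31 male libraries (13% of the males) lay at or under the highest female. The median male library held 1147 counts of the gene and the median female library 42, so that most female values are well above the counting floor.

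**Figure D1:**
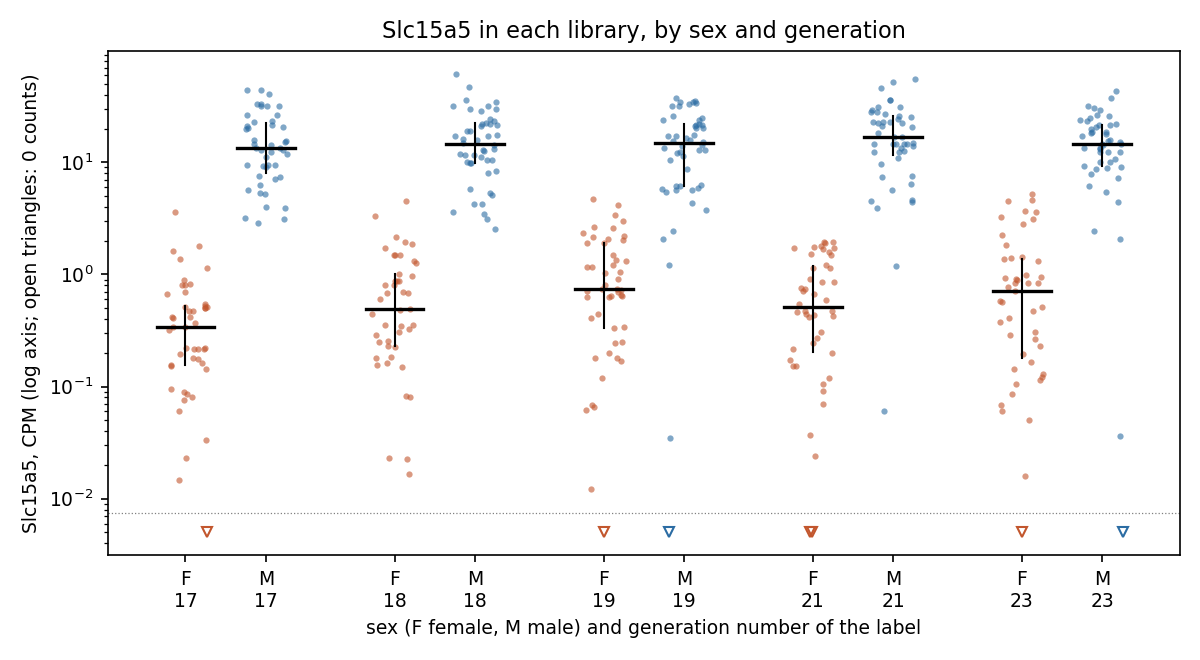
Slc15a5 in CPM on a log axis for every library, females in orange and males in blue, by generation number. Black bars are medians with quartiles, and open triangles under the dotted line are libraries with 0 counts. Males reach 61.7 CPM and females 5.19, and 5 males lie at or under 0.0603 CPM, apart from the rest.

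The female values spread widely and without a gap. Of the female libraries, 32 (13.6%) were under 0.1 CPM and 66 were above 1 CPM, with the rest between. The gene varied more than most tested genes: the SD of its variance-stabilised (VST) score was 1.04 in males, higher than for 99% of them. In females the SD was 0.62, higher than for 96.1%. Its spread was not compared with that of genes of like level. The median gene had an SD of 0.20 in males and 0.21 in females. Total counts per library ran from 35902446 to 165723762.

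At the bottom of the male range stood 5 libraries without a continuous transition to the others. DO279 (generation 19) and DO512 (generation 23) had 0 counts of Slc15a5, which allows up to 0.0347 and 0.0340 CPM (a floor of 3 counts, covering counting error only). DO320 (generation 19) had 2 counts or 0.0348 CPM, DO543 (generation 23) had 4 counts or 0.0361 CPM, and DO394 (generation 21) had 6 counts or 0.0603 CPM. The next male, DO409, had 1.18 CPM, 19.6 times the fifth, and no male lay from 0.1 to 1 CPM. The 5 libraries came from 3 generations and 4 of the 5 library blocks (stretches of up to 96 consecutive library numbers). They carried RNA of the Y-linked gene Ddx3y at 79.2 to 132.3 CPM, within the male range, and Xist, the transcript of the inactive X chromosome, at 0.0463 to 0.266 CPM. The sex-linked RNA of these libraries matched their labels.

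In the same 5 libraries, the near genes Mgst1 and Eps8 lay toward opposite ends of the male range, and other genes varied in their place. Mgst1, a microsomal glutathione S-transferase whose 5′ end is 0.0604 Mb from that of Slc15a5, ranked 4, 11, 1, 15 and 2 from the bottom of the males in DO279, DO512, DO320, DO543 and DO394. Its CPM there was 10.2, 13.5, 7.78, 14.5 and 8.71, against a male median of 28.4. Eps8, an adaptor of actin remodelling whose 5′ end is 0.425 Mb away on the other side, ranked 12, 5, 18, 1 and 6 from the top in the same order, at 10.6, 11.5, 9.76, 14.1 and 11.3 CPM against a male median of 7.06. Dera, a deoxyribose-phosphate aldolase, ranked 20, 1, 2, 94 and 24 from the top, so that DO543 stood near the middle. For the remaining genes the rank is given as a percentage, with 100% for the highest male. Lmo3, a LIM-domain transcriptional cofactor with its 5′ end 0.502 Mb away, had 0 counts in DO279, as in 26.8% of males, and stood at 51.9%, 63.6%, 65.3% and 55.2% in the others. Rergl, a Ras-like small GTPase, stood at 93.7%, 15.1%, 78.7%, 88.3% and 97.5%. These 2 genes are scarce in muscle, and neither placed all 5 libraries at 1 end. The uncharacterised gene 1700001O22Rik, which has a large male excess, stood at 32.6%, 90.8%, 22.2%, 15.9% and 34.3% in the same 5 libraries. The complement component C7 stood at 19.2%, 80.3%, 39.3%, 38.9% and 68.6%, and Amd2, an enzyme of polyamine synthesis, at 51%, 95.4%, 10.04%, 90.4% and 49.4%. The secreted glycoprotein Stc2 stood at 0.42%, 9.62%, 45.6%, 42.3% and 69.9%, with DO279 the lowest male of all, and the oestrogen-responsive Greb1 at 64.4%, 7.95%, 15.1%, 48.1% and 3.35%. For Mgst1 all 5 lay among the 15 lowest males and for Eps8 among the 18 highest. For each of these 5 distant genes the libraries stood in both the lower and the upper part of the male range. For 1700001O22Rik, Stc2 and Greb1 most of them stood in the lower part. Low Mgst1 did not always go with low Slc15a5: DO271, DO175, DO516, DO305, DO287 and DO548, at 10.1 to 13.4 CPM of Mgst1, had 10.4 to 19.9 CPM of Slc15a5. DO281, at 12.8 CPM of Mgst1, had 1.20 CPM of Slc15a5. The 5 libraries lowest for Slc15a5 were picked by that gene itself. Mgst1 and Eps8 were picked for their correlation with it in males, to which these 5 libraries contribute. Their places for both genes were thus partly set by that choice, and the contrast with the distant genes is no independent support, so each is given by its own value, with no mean and no test.

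**Figure D2:**
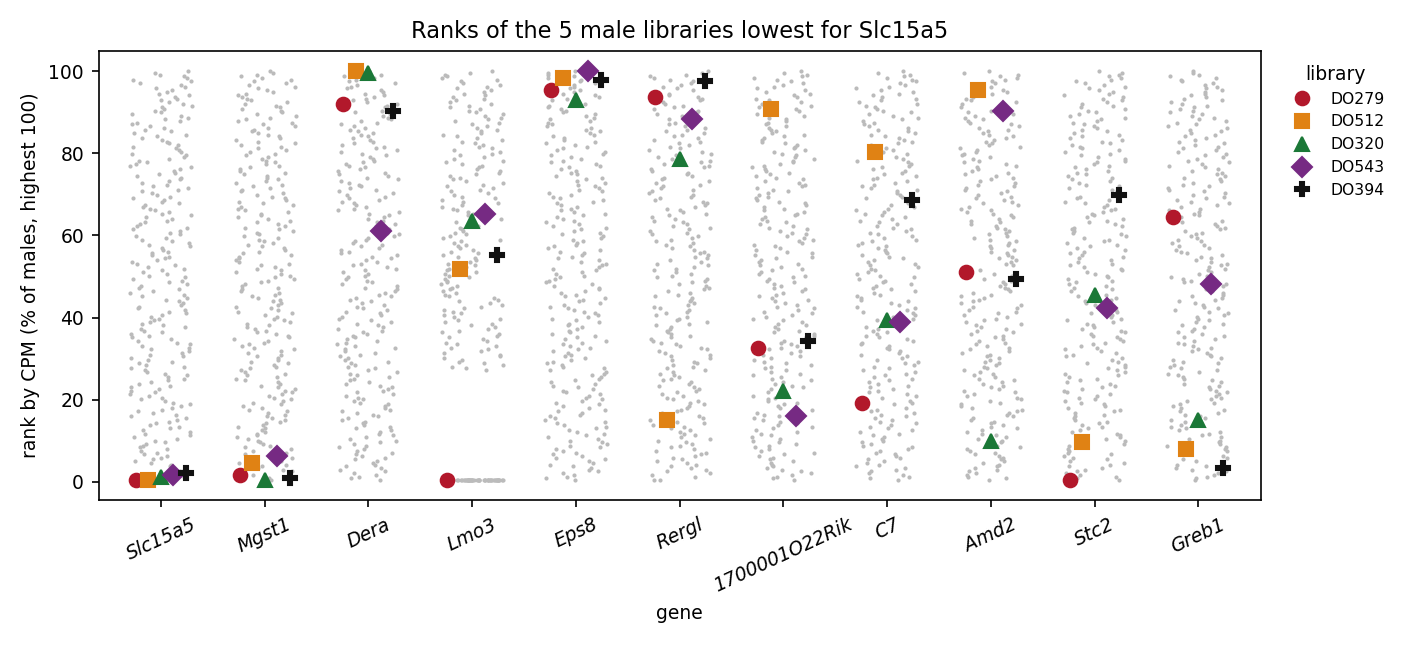
Rank of each male library by CPM, as a percentage of the males with the highest at 100%, for Slc15a5, 5 near genes and 5 distant genes with a large difference between the sexes. Grey points are all males and coloured symbols the 5 males lowest for Slc15a5. They lie at 0.42% to 6.28% for Mgst1 and from 92.9% upwards for Eps8, and spread from 0.42% to 95.4% over 1700001O22Rik, C7, Amd2, Stc2 and Greb1.

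Among females, 5 libraries had 0 counts of Slc15a5. In DO036, DO239, DO344, DO337 and DO466 the rank of Mgst1 from the bottom of the females was 24, 120, 47, 15 and 1, and that of Eps8 from the top was 62, 60, 57, 18 and 2. The females highest for Slc15a5, DO483, DO268, DO485, DO133 and DO497 at 4.47 to 5.19 CPM, stood at 96.6%, 98.3%, 84.7%, 48.5% and 97.9% of the female ranks for Mgst1 and at 46%, 14%, 21.7%, 32.8% and 80.9% for Eps8. The males highest for Slc15a5, DO208, DO402, DO392, DO199 and DO412 at 46.2 to 61.7 CPM, stood at 96.2%, 59%, 54.8%, 81.2% and 46% of the male ranks for Mgst1 and at 2.09%, 34.7%, 79.5%, 8.37% and 35.1% for Eps8. The highest males thus stood at 46% or above for Mgst1 and were spread from 2.09% to 79.5% for Eps8.

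Several genes near Slc15a5 on the chromosome correlated with it across animals, and in males 4 of them had the largest absolute Pearson r of VST scores of all genes tested, an order that changed with the measure. Within 4 Mb, measured between the lower coordinates of the genes whatever their strand, there were 61 genes, of which 54 passed the filter on low counts. Pearson correlations of VST residuals after generation were computed within each sex over all its libraries, and animals share library preparation and genetic background, so no p is given. Mgst1 had r = 0.52 in males, the largest absolute value of 18822 genes by this measure, and 0.35 in females. It was behind Lmo3 by Spearman rho and without the 5 lowest males. Eps8 had r = -0.43 in males and -0.35 in females, and Dera had -0.31 and -0.21. Rergl, 1.42 Mb away by its 5′ end, had -0.37 in males and -0.40 in females, in females the largest absolute value of all genes. Lmo3 had 0.41 and 0.30. These 5 genes are the near genes with the largest absolute r in males, and all 5 kept their sign in females.

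**Figure D3:**
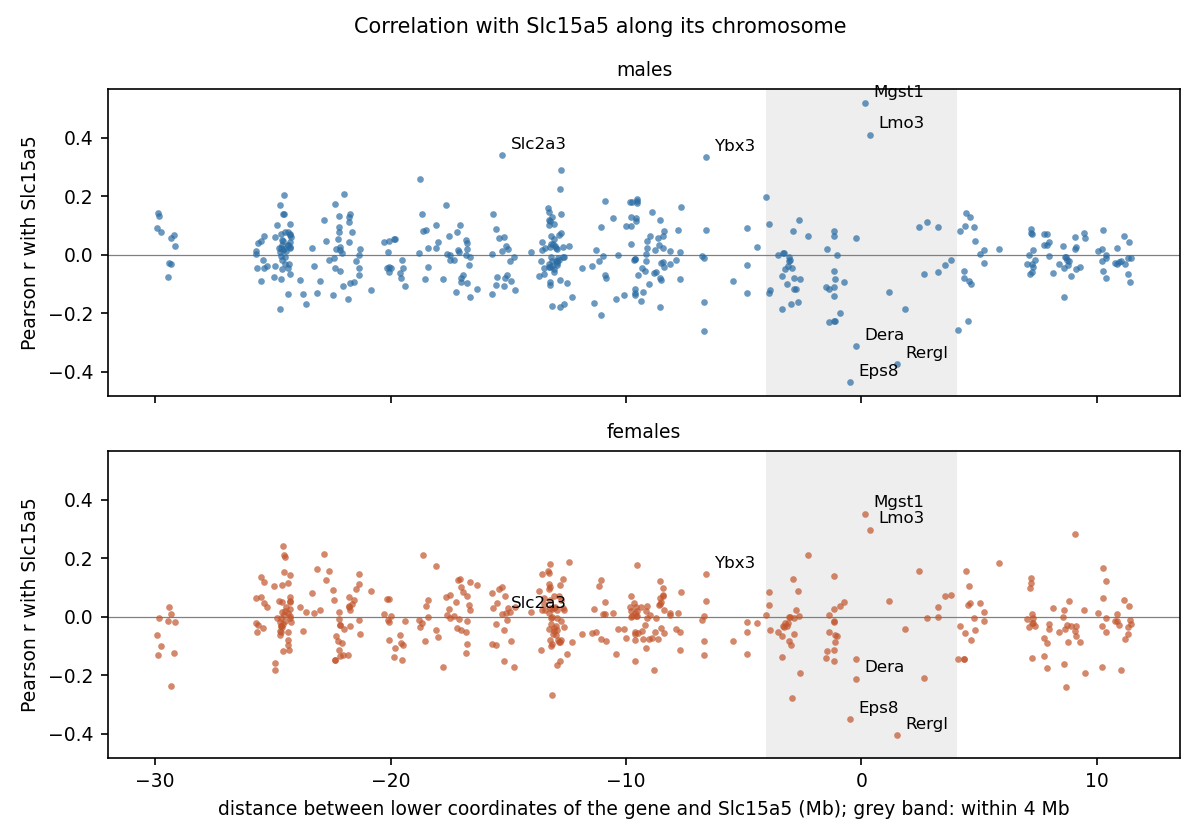
Pearson r with Slc15a5 in males (top) and females (bottom) for tested genes along its chromosome, against the distance in Mb between the lower coordinates of the gene and of Slc15a5. The grey band is 4 Mb on each side. Mgst1, Lmo3, Eps8, Dera and Rergl are the extremes of the band in males, at 0.52 to -0.43. In females Dera, at -0.21, lies within the range of other genes.

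Of these genes, 2 are scarce, and Lmo3 is close to the detection limit. Lmo3 had a median of 0.0436 CPM in males and 26.8% of male libraries at 0, and Rergl had a median of 0.272 CPM, so their r values rest on few counts. Mgst1, Eps8 and Dera, with medians of 28.4, 7.06 and 4.67 CPM in males, do not have this limit. Spearman rho was 0.43 for Mgst1, -0.31 for Eps8, 0.44 for Lmo3, -0.37 for Rergl and -0.24 for Dera in males. Within single generations, r of Mgst1 in males ran from 0.47 to 0.60, and within library blocks from 0.34 to 0.62. In females it ran from 0.23 to 0.49 and from 0.20 to 0.46. For Rergl in males r came down to -0.14 in 1 generation and in 1 block. That of Eps8 ran from -0.64 to -0.15 between generations and from -0.52 to -0.31 between blocks, and in females it came down to -0.03 in 1 block. That of Dera ran from -0.49 to 0.00 between generations in males and from -0.37 to 0.01 in females, so that it was near 0 in 1 generation of each sex. Without the 5 lowest males, an alternative added after these values were seen, r in males was 0.41 for Mgst1, -0.31 for Eps8, 0.47 for Lmo3, -0.37 for Rergl and -0.21 for Dera.

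**Figure D4:**
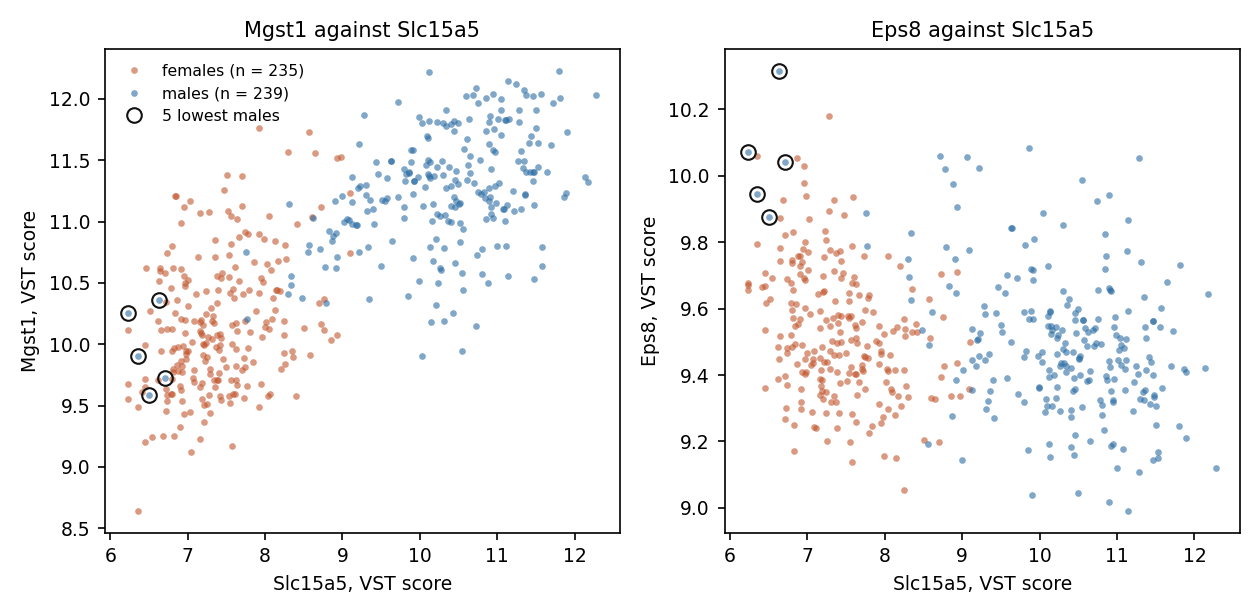
VST scores of Mgst1 (left) and Eps8 (right) against Slc15a5 in each library, females in orange and males in blue, with the 5 males lowest for Slc15a5 ringed. Mgst1 rises and Eps8 falls along Slc15a5 within each sex (r = 0.52 and -0.43 in males).

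The correlation faded with distance. The median absolute r in males was 0.31 over the 7 tested genes within 1 Mb, 0.11 over 16 genes from 1 to 2 Mb, 0.078 over 31 genes from 2 to 4 Mb and 0.071 over 50 genes from 4 to 8 Mb, against 0.048 over 17715 genes on other chromosomes. In females the same medians were 0.21, 0.064, 0.052 and 0.052, against 0.058 on other chromosomes. Of the 54 near genes, 38 had the same sign in both sexes. The sign was not uniform, with 5 near genes above 0.1 and 20 below -0.1 in males. The shares of all genes that kept their sign or passed these limits were not computed. An absolute r over 0.2 with the same sign in both sexes occurred in 5 near genes and in 9 of 18768 others, 2 of those 9 on chromosome 6.

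Beyond 4 Mb, no gene reached the absolute r of Mgst1, Eps8, Lmo3 and Rergl in males by Pearson r on VST scores, but Slc2a3 and Ybx3 were above Dera. This order did not hold under other measures. With log2 CPM, Slc2a3 had r = 0.37, above Lmo3 (0.33) and Rergl (-0.31) in size. Rab12, a small GTPase gene on chromosome 17, passed Eps8 in size by Spearman rho (0.34 against -0.31) and without the 5 lowest males (r = 0.32 against -0.31). The 10 highest far genes in males had r from 0.27 to 0.34, and 3 of them lie on chromosome 6: Slc2a3, the glucose transporter GLUT3, 15.3 Mb away (0.34), Ybx3, a cold-shock-domain protein, 6.62 Mb away (0.33), and Cd27, a lymphocyte receptor, 12.8 Mb away (0.29). The others were Rab12, Htra1, Tekt1, Neto2, Gm29521, Vcl and Nek9. The 10 lowest in males had r from -0.26 to -0.23, again with 3 on chromosome 6 (Gm44958, Slco1a6 and Rab11fip5), beside others such as Tmem200a, Flrt1, Serinc5, Gpr26, Itga2 and Pcdhgc3. Of these 20, 16 had the same sign in females, although Slc2a3 had an r of only 0.01 there. Tekt1 was among those that changed sign, with r = 0.28 in males and -0.21 in females. In females the highest were Pkd1l3, Chd6, Syt12, Pik3r1 and Gpx3 (0.31 to 0.36) and the lowest Rbm3, Ccdc50, Micu3, Cadm1 and Map3k7cl (-0.35 to -0.28). These lists changed with the measure: with log2 CPM in place of the VST score, 4 of the 10 highest and 5 of the 10 lowest far genes in males stayed, and without the 5 lowest males 5 and 1 stayed.

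Some genes near Slc15a5 also differed between the sexes. Of the 54 near genes tested, 13 (24.1%) were higher and 10 (18.5%) lower in males (edgeR quasi-likelihood F-test, Benjamini-Hochberg over all 18823 genes), where 24.4% of all genes were called higher and 30.6% lower. Their median log2 difference was -0.00, against -0.01 over all genes. Mgst1 had the largest male excess among near genes, 29.8 ± 10.5 CPM in males and 13.7 ± 6.68 in females (SD), a log2 difference of 1.13 ± 0.05 (SE). Dera was lower in males by 0.13 ± 0.02 on the log2 scale. Eps8 (log2 difference -0.02, adjusted p = 0.434), Rergl (-0.00, adjusted p = 0.987) and Lmo3 (0.29, adjusted p = 0.112) did not pass by edgeR.

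Of the other family members, Slc15a2, Slc15a3 and Slc15a4 were tested and Slc15a1 was not analysed here. Slc15a4 was higher in males, at 13.3 ± 2.99 CPM against 10.2 ± 3.23 (SD), a log2 difference of 0.38 ± 0.03 (SE). Slc15a2 had a log2 difference of 0.33 (adjusted p = 0.120) and Slc15a3 of -0.14 (adjusted p = 0.0897), both short of the threshold by edgeR. Per kilobase of exon, Slc15a5 stood highest of the 4 genes in males, at a median of 4.73 CPM per kb against 2.44 for Slc15a4, 0.193 for Slc15a2 and 0.0737 for Slc15a3. In females Slc15a4 led at 1.85, with 0.167 for Slc15a5, 0.143 for Slc15a2 and 0.0763 for Slc15a3, and the ranges of the last 3 overlap. Slc15a2, Slc15a3 and Slc15a4 each overlap other annotated genes, and the counting was not stated to use strand, so their levels are less certain than that of Slc15a5. Slc15a2 itself spread from 0.0226 to 31.9 CPM in males and 0.0289 to 37.4 in females. In males, r with Slc15a5 was 0.11 for Slc15a2, -0.04 for Slc15a3 and 0.19 for Slc15a4.

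**Figure D5:**
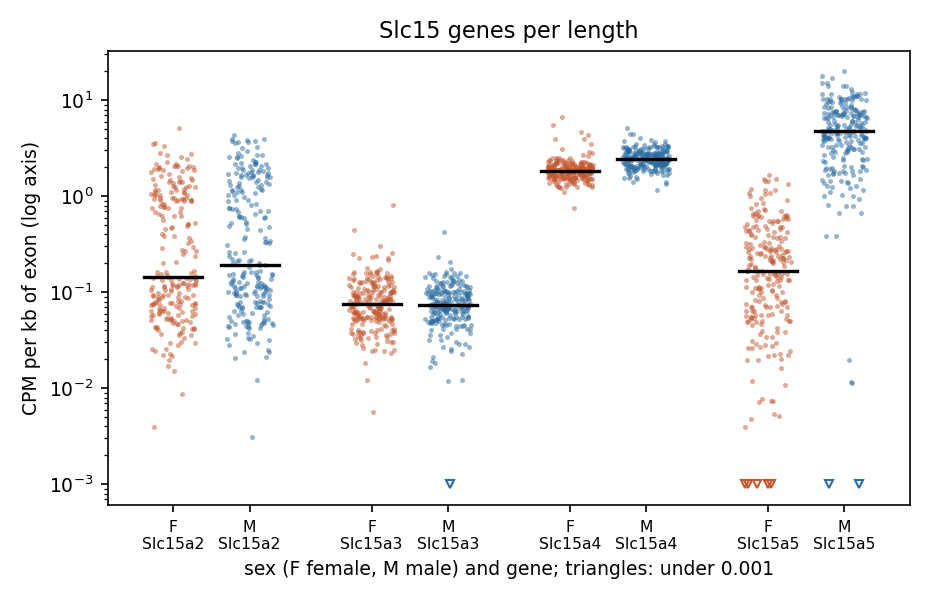
CPM per kb of exon (log axis) of Slc15a2, Slc15a3, Slc15a4 and Slc15a5 for each library, females in orange and males in blue. Black bars are medians and triangles are values under 0.001. Slc15a5 is the highest of the 4 in males (median 4.73) and far below Slc15a4 in females (0.167 against 1.85).

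Generation was a label the choice of the gene did not use. Female medians were 0.342 CPM in generation 17, 0.492 in 18, 0.736 in 19, 0.512 in 21 and 0.713 in 23, and male medians were 13.4, 14.5, 14.8, 16.7 and 14.7. The quartile ranges of the groups overlap within each sex. The effect of generation did not pass the test (edgeR quasi-likelihood F-test with sex as covariate, range of 0.52 on the log2 scale, adjusted p = 0.302), where 7.56% of genes did. In females alone, on log2 CPM, the range was 1.12 (permutation p = 0.022, not adjusted over genes), and in males alone it was 0.45 (permutation p = 0.555). The sex-by-generation interaction did not pass it either (adjusted p = 0.219, unadjusted p = 0.0021), where 0.531% of genes did. In that fit the female levels of later generations were up to 1.25 above generation 17 on the log2 scale, and the male levels -0.07 to 0.21 from it. The difference between the sexes was 34.1-fold in generation 17 and 13.7-fold in generation 23, fitted separately, and 14.6-fold to 24.9-fold between the 5 library blocks. The library block effect was not past the threshold (range of 0.43, adjusted p = 0.272), where 47.4% of genes were called.

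The level of Slc15a5 was also set against depth and the makeup of the muscle sample. The fast fibre myosin Myh4 was at a median of 70873 CPM in males and 68314 in females, which fits the tissue label. The gene was compared within each sex with log2 total count and with the mean VST score of 10 marker lists (slow and fast fibre, adipocyte, macrophage, Schwann cell, erythroid, endothelial, fibro-adipogenic, satellite cell and denervation), 22 relations in all, by permutation tests with 100000 resamples, 2-sided. None passed after Benjamini-Hochberg adjustment, by Pearson r or Spearman rho. In females the satellite cell score had r = -0.18 and rho = -0.18 (permutation p = 0.005, adjusted 0.0997, and r = -0.17 without the 2 libraries farthest from the median), and the adipocyte score had r = 0.17 and rho = 0.16 (permutation p = 0.00906, adjusted 0.0997, and r = 0.15 without the 2 farthest for that score). In males the slow fibre score had r = -0.14 and rho = -0.13 (permutation p = 0.0285, adjusted 0.209, and r = -0.11 without its 2 farthest libraries), and log2 total count had r = -0.12 and rho = -0.10 (permutation p = 0.0554, adjusted 0.305, and r = -0.17 without its 2). By rho the strongest male relation was that of the Schwann cell score, with r = -0.11 and rho = -0.14 (permutation p of rho = 0.0265, adjusted 0.195). Between the sexes, marker lists also differed, in both directions. All 9 slow fibre markers were lower in males (median log2 difference -0.45), as were 7 of the 8 adipocyte markers (median -0.54), where 30.6% of all genes were lower by edgeR. Of 6 endothelial markers 5 were higher in males, and of 10 fast fibre markers 5 were higher and 3 lower, where 24.4% of all genes were higher. The part of these markers in the difference of Slc15a5 was not tested. In bulk tissue, fewer cells of a type and less RNA per cell cannot be told apart.

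Genes that handle peptides and amino acids were described from lists chosen with earlier results of these data in view. Of 16 peptidases, 10 (62.5%) were lower and 2 (12.5%) higher in males by edgeR, where 30.6% of all genes were lower and 24.4% higher, with a median log2 difference of -0.09 against -0.01 over all genes. The membrane aminopeptidase Anpep was lowest, by 0.35 ± 0.03 (SE), and Nln, neurolysin, was highest, by 0.12 ± 0.02. Of the 5 dipeptide genes, 3 were higher and 1 lower in males, a list too short to set against those shares. Slc6a6, the taurine transporter, was higher by 0.19 ± 0.02, Cndp2, a cytosolic dipeptidase, by 0.13 ± 0.01, and Carnmt1, a carnosine N-methyltransferase, by 0.16 ± 0.04. Carns1, carnosine synthase, was lower by 0.22 ± 0.03. Of 9 amino acid transporters, 3 (33.3%) were higher and 4 (44.4%) lower, against 24.4% and 30.6% of all genes, among them Slc38a2 at 0.62 ± 0.04 and Slc7a2, a cationic amino acid transporter, at -0.73 ± 0.05. Of the steroid receptors, the glucocorticoid receptor Nr3c1, the oestrogen receptor Esr1 and the mineralocorticoid receptor Nr3c2 were lower in males (log2 difference -0.28, -0.12 and -0.05), as was the progesterone receptor Pgr at -1.57 ± 0.18, a gene at a mean of 0.0319 CPM in males. In males the median absolute r with Slc15a5 was 0.056 over the peptidases, 0.040 over the dipeptide genes and 0.047 over the amino acid transporters, close to 0.048 over all genes. In females the same medians were 0.058, 0.093 and 0.11, against 0.058 over all genes.

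Companion genes had been chosen for a large difference between the sexes in earlier results, so that difference is not a finding here. In males r was 0.22 for 1700001O22Rik, 0.16 for C7, 0.07 for Amd2, -0.08 for Stc2 and 0.12 for Greb1. In females Greb1 had the highest of these, 0.24.

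In 5 libraries the sex-linked RNA departed from the pattern of the labelled sex, taken as Xist of at least 10 CPM and no Ddx3y count in females, and Xist of at most 10 CPM and Ddx3y of at least 10 CPM in males. Of these, 3 were labelled female. DO048 had the Xist level of a female, 122.3 CPM, with a trace of Ddx3y at 0.133 CPM, whereas DO153 and DO347 had little Xist, at 0.325 and 0.173 CPM, and no Ddx3y. Among males, DO193 had both, with Xist at 13.4 CPM and Ddx3y at 93.7 CPM, and DO308 had neither. None of the 5 showed the full pattern of the other sex. Slc15a5 was at 0.694, 0.256 and 0.863 CPM in DO048, DO153 and DO347, and at 17.2 and 6.31 CPM in DO193 and DO308, within the range of the labelled sex. That statement rests on the column names being right, since DO048 and DO308 stand in each other's place in the order of the deposited columns. Without these libraries the log2 difference between the sexes was 4.32 ± 0.14 (SE).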

How the data were processed

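Skeletal muscle RNA of 474 mice (235 labelled female, 239 male) was measured by RNA-seq, with poly(A) selection and paired reads per the study's methods. The authors combined both mates and aligned each on its own, as if unpaired, against transcripts of the founder strains, and estimated counts with EMASE in GBRS. Their versions were not given in the sources used here. The authors deposited unnormalised expected counts, which were rounded here to whole numbers for the edgeR and DESeq2 fits and left unrounded for CPM, and a VST score per gene from DESeq2. Positions follow GRCm38, and 99.5% of starts equalled GENCODE M21. Columns were matched to samples by animal number. DO048 and DO308, and DO309 and DO310, stand in exchanged places, and their names were taken as right. DO048 and DO308 are also among the 5 libraries whose sex-linked RNA departed from the label. Generation is an assumed reading of a number in the titles, the meaning of the library numbers is not stated, and the wave of the study was not fitted.

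edgeR 4.0.16 in R 4.3.3 fitted quasi-likelihood F-tests on 18823 genes kept by filterByExpr (minimum count 10), with TMM factors, Benjamini-Hochberg adjustment over all genes and a threshold of 0.05. limma 3.58.1 and DESeq2 1.42.0 gave alternatives. CPM used the TMM-scaled total, and log2 CPM a prior count of 2. Library numbers were divided into 5 blocks. The scripts were tested on simulated data. Correlations used VST residuals after generation within each sex. Upstream sequence came from RefSeq (GRCm38.p6). p-values measure the spread between animals, 1 library each. Genes named are Slc15a5, its family, its near genes with the 5 largest absolute r in males, the far genes with the 10 highest and 10 lowest r in males and 5 and 5 in females, the companion genes and the fixed lists. Some members of these lists are not reported here, and the 5 genes on either side of Slc15a5, which the rule also takes, are otherwise covered by the counts of near genes. The members and lists were chosen with earlier results of these data known.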

Additional observations from a re-analysis of the deposited data

How the results depend on the processing

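The generation effect on Slc15a5 did not pass the threshold under any of the 8 alternatives fitted across all genes (adjusted p from 0.21 to 0.825 with edgeR, DESeq2 or limma). In a permutation test of the F ratio on log2 CPM within each sex, the range between generations was 1.12 in females (permutation p = 0.022) and 0.45 in males (permutation p = 0.555), each without adjustment over genes. The sex-by-generation interaction had adjusted p from 0.219 to 0.999 and the library block effect from 0.217 to 0.78 by edgeR, DESeq2 or limma, where each was run. The log2 difference between the sexes ran from 3.78 to 5.09 within generations, from 3.87 to 4.64 within library blocks, and was 2.84 on the VST scale, which is compressed at low counts. With totals in place of TMM factors, 2 of the 3 other Slc15 genes differed between the sexes in place of 1, the added gene being Slc15a3 (-0.20, adjusted p = 0.0205 by edgeR, against 0.0205 to 0.362 over its alternatives), and the cause was not tested. The number of near genes called ran from 22 to 27, and no relation to depth or markers passed under any of 5 alternatives. The 5 near genes with the largest absolute r in males were all kept under 4 alternatives, and 4 of 5 without the 5 lowest males. Far genes were less settled: 4 to 9 of the 10 highest and 1 to 9 of the 10 lowest were kept. Groups held 45 to 50 libraries, so no single replicate was left out. No paired analysis was possible because each animal gave 1 library and the replicate numbers only name libraries in order. Low counts in females (median 42) and in Lmo3 and Rergl limit the precision of their values.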
